A study of Mus musculus with 12 samples.

Results

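The 49 genes described here are long autosomal genes for adhesion, synaptic and guidance proteins of neurons and for their partners. The choice was by name, with earlier results of these data known. These genes were followed among 20144 protein-coding genes of chromosomes 1 to 19 for their position relative to the nuclear lamina in early mouse embryos. A gene was called LAD when its midpoint lay in a lamina-associated domain of a list. Of the 49 genes, 44 were at least 500 kb long, with a median of 1108 kb and a range from 129 kb (Cdh9) to 2271 kb (Ptprd). They lay on 16 chromosomes.

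All embryos were (C57BL/6J xCBA) x DBA/2J and came from zygotes injected 17 to 18 h after hCG with 20 µM siRNA, either siControl or siRif1. Rif1 encodes a chromatin protein known for its part in replication timing. Late 2-cell embryos of every group then received, at 46 to 48 h, mRNA for AID-Dam-LaminB1, for the auxin receptor Tir1 and for membrane-eGFP, in 500 µM auxin. In this method (DamID) a bacterial adenine methyltransferase fused to lamin B1 marks DNA near the lamina, and auxin keeps the fusion degraded until it is washed out. Auxin was removed at 54 h for 4-cell embryos, collected at 60 to 62 h, and at 66 h for 8-cell embryos, collected at 72 to 74 h. Each replicate pooled 16 to 24 blastomeres, from 4 to 6 embryos at the 4-cell stage or 2 to 3 at the 8-cell stage. The submitters made 1 list of domains per group from its 3 replicates. At the 4-cell stage the siControl list held 601 domains (786 Mb) and the siRif1 list 644 (1038 Mb), and at the 8-cell stage they held 746 (1067 Mb) and 738 (1024 Mb). They carry no replicate spread and no depth, so every difference below is a description of pooled lists without a test. They hold no RNA levels, so neither the knockdown nor the expression of any gene could be checked.

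Chromatin at the lamina is generally poor in genes, late replicating and weakly transcribed, and such domains are first laid down in the embryo before implantation. Long neuronal genes are textbook residents of gene-poor DNA. Many, such as the listed contactin and neurexin genes, have very long introns and are used mostly by neurons, far later than the stages studied here. This does not hold for whole families: the 89 relatives described below had a median length of 75 kb. Most of the listed genes encode proteins that hold cells and synapses together, guide axons, or scaffold and tune the complexes at those contacts.

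The listed genes were LAD least often in siControl 4-cell embryos and most often in siRif1 8-cell embryos. In siControl 4-cell embryos 13 of 49 (26.5%) were LAD, beside 24.7% of all protein-coding genes. In siRif1 4-cell embryos 21 (42.9%) were, beside 24%. At the 8-cell stage 25 (51%) were LAD in siControl, beside 26.3%, and 29 (59.2%) in siRif1, beside 24.2%. The mean share of the gene body in LADs took the same order, at 23.4, 45.6, 51.1 and 54.1%, and the median body share was 0, 35.6, 55 and 59.9%. Below, 4 values in a row keep this order: the 4-cell stage comes before the 8-cell stage, and within each stage siControl comes before siRif1.

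Other long genes were LAD more often in 3 of the lists. Of the 172 other protein-coding genes of at least 500 kb, 49.4, 69.2, 68.6 and 57.6% were LAD, against 29.5, 47.7, 52.3 and 61.4% of the 44 listed genes of at least that length. The sets share this minimum but not their lengths, with medians of 663 kb for the other long genes and 1135 kb for the 44 listed ones. In siRif1 8-cell embryos the midpoint count was higher for the listed genes, while their mean body share (55.7 against 57.9%) and median body share (60.1 against 70.4%) were lower. The listed genes also had fewer gene midpoints near their own. A median of 1 other protein-coding gene had its midpoint within 1 Mb of a listed gene's (range 0 to 21, and 0 for 20 of the 49), beside 6 for the other long genes and 29 for all genes. The body of a long gene itself takes up much of this window, so a lower count is partly built in. Gene length was not corrected for here. LADs that held a listed gene's midpoint had median lengths of 2.20, 3.15, 3.00 and 3.10 Mb, against 0.90, 1.10, 1.00 and 0.90 Mb over all LADs of the same lists. A longer domain is more likely to hold any given midpoint, so longer medians are built into this comparison and say nothing particular of the listed genes. Gene length was also not separated from domain length in it.

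**Figure D1:**
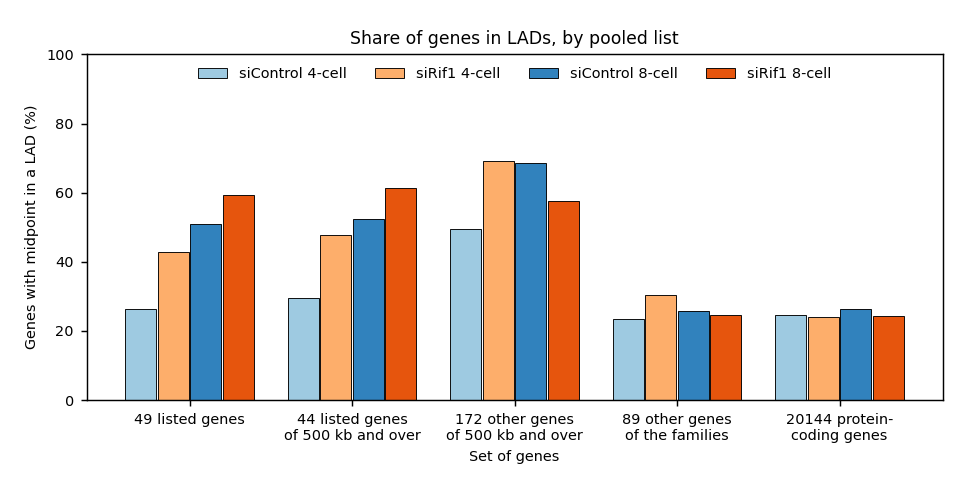
Percent of genes whose midpoint lay in a LAD (y axis, from 0) for 5 sets of genes (x axis), with 1 bar per pooled list and no error bars because each list is a single value. The 49 listed genes go from 26.5% in siControl 4-cell to 59.2% in siRif1 8-cell embryos, whereas all 20144 protein-coding genes stay between 24 and 26.3%.

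Over the 4 lists, 12 genes were LAD everywhere, 12 nowhere and 25 in 1 to 3 lists. LAD in all 4 lists were 24.5% of the listed genes, 9.66% of all genes and 33.1% of the other long genes. Of the 25, 16 were LAD in an 8-cell list and in no 4-cell list (32.7% of the 49, against 10.5% of all genes and 15.1% of the other long genes), and Nlgn1 and Kcnip4 were the 2 with the opposite pattern. Nlgn1 was LAD in siRif1 4-cell alone, as were 1.85% of all genes and 4.65% of the other long genes. Kcnip4 was LAD in both 4-cell lists alone, as were 2.13 and 4.07%. In siControl 4-cell alone 0 listed genes were LAD, against 4.97 and 1.16%. Only genes outside both 4-cell lists can be LAD at the 8-cell stage alone. Of such genes, 16 of 28 listed, 26 of 48 other long and 2112 of all 13682 were, so the listed and other long genes were close. Each of the 13 genes that were LAD in siControl 4-cell embryos was also LAD in siRif1 4-cell embryos. The same held for 80 of 85 other long genes and for 3350 of 4978 among all genes. Among all genes, 57.4% were LAD in no list, against 24.5% of the listed genes and 12.8% of the other long genes. The body share ranged over at least 50 percentage points between lists in 23 of the 49 genes, and over the full 100 points in 10. This range was not counted for all genes or for the other long genes, so it is not shown to be particular to the listed ones.

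**Figure D2:**
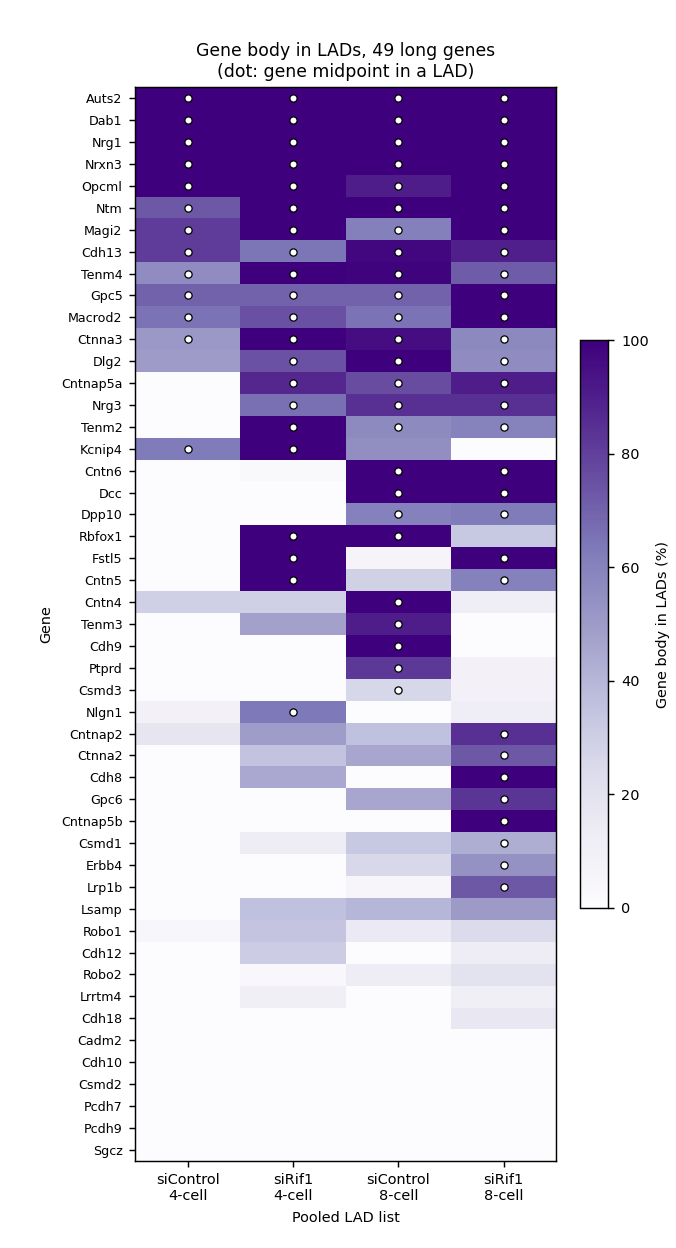
Heat map of the percent of each gene body in LADs (colour, 0 to 100%) for the 49 genes (y axis) in the 4 pooled lists (x axis), with a white dot where the midpoint lay in a LAD. Auts2, Dab1, Nrg1 and Nrxn3 are at 100% in all 4 lists at the top, and 6 genes at the bottom are at 0 in all 4.

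The start of transcription did not always share the state of the midpoint. RefSeq promoter entries on GRCm38.p6 gave a strand and a start for 37 of the 49 genes. In these 37 the start was LAD in 6, 18, 17 and 18, and the midpoint in 10, 17, 18 and 21. Over 16123 protein-coding genes with such an entry, the start was LAD in 24.4, 23.9, 26.5 and 24.1%. In siControl 4-cell embryos 4 of the 37 had a LAD midpoint with a start outside, and none had the reverse. In siRif1 4-cell embryos 3 had a LAD midpoint alone and 4 a LAD start alone. The starts of Cntn5, Ctnna2, Ctnna3 and Robo2 were LAD in siRif1 4-cell embryos and in no other list. The listed start lay at least 100 kb inside the annotated body in 10 of the 37 genes, so the start and the end of the body are not the same point there.

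Promoters with LAD starts and those outside LADs both spanned a wide range of base composition. To show the range, 4 promoters are printed, the richest and the poorest in CG among genes whose start was LAD in all 4 lists and among those whose start was LAD in none, taking genes with a start less than 10 kb from the end of the body. Each is the 250 bases before the start of transcription on GRCm38.p6, 5′ to 3′ on the gene's strand, from RefSeq. Capitals mark CG, which reads the same on both strands. Macrod2 (chr2:140395180-140395429, plus strand) and Dab1 (chr4:103619250-103619499, plus strand) had LAD starts in all 4 lists, and Nrg3 (chr14:39473089-39473338, minus strand) and Cdh10 (chr15:18820079-18820328, plus strand) in none.
Macrod2: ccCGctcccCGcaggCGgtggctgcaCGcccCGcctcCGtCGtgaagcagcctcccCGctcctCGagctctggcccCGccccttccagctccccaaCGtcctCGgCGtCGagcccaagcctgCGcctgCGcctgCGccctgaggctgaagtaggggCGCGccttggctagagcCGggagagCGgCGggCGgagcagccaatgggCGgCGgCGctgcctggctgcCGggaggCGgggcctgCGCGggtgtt
Dab1: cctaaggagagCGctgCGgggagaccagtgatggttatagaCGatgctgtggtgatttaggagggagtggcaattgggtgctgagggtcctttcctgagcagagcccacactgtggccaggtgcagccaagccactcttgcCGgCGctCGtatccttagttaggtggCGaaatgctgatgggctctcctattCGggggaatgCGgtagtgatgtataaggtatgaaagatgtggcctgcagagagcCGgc
Nrg3: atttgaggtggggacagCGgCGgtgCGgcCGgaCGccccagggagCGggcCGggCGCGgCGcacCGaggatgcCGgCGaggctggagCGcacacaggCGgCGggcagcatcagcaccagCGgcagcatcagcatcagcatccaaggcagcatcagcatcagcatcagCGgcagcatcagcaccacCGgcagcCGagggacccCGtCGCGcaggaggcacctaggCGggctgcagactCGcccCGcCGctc
Cdh10: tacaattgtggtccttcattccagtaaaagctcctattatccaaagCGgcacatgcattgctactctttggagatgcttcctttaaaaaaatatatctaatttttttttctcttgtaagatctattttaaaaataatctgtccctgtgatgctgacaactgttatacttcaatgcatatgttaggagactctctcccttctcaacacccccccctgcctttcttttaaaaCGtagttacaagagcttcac
These 4 windows hold 30, 10, 27 and 2 CG. The 10-kb limit left out Nrxn3 and Ntm, whose starts were LAD in all 4 lists and lay 72 and 550 kb inside the body. Their windows held 2 CG each, so Dab1 is the poorest only within that limit. Over the 37 genes the count ran from 2 to 36 with a median of 9, and 48.6% of the windows held at least 10 CG, beside 51.8% of 16457 protein-coding promoters. The count of CG describes these letters and says nothing of methylation or use.

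**Figure D3:**
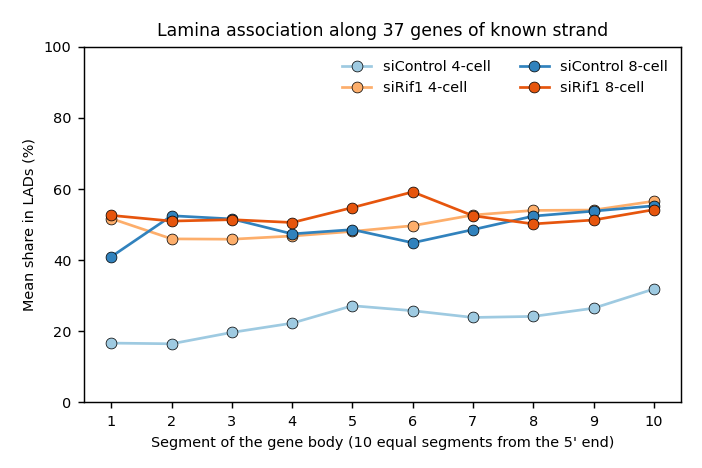
Mean percent in LADs (y axis, from 0) of 10 equal segments of the gene body from its 5′ end (x axis), over the 37 genes of known strand, with 1 line per pooled list. The siControl 4-cell line lies lowest in every segment, from 16.7% in the first to 31.9% in the last, and the other lines lie between 41 and 59.2%.

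With each body cut into 10 equal segments, the first averaged 16.7, 51.7, 41 and 52.6% in LADs and the last 31.9, 56.6, 55.3 and 54.2%. In siControl 4-cell embryos 9 of the 37 genes had a larger share in LADs on the 3′ side of the midpoint, 3 on the 5′ side, and 25 the same on both. In the other lists the numbers on either side were within 1 gene of each other. Of all 49 genes, 13, 19, 26 and 27 held at least 1 domain border inside the body, and so lay in LADs over only part of it. Bodies partly in LADs were also found in 66, 54, 57 and 72 of the 172 other long genes. Among all 20144 genes they numbered 491, 418, 510 and 511. The most borders in a gene were 4, 2, 4 and 3.

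At the 4-cell stage the comparison asked where lamina contact differs when Rif1 is depleted, and every listed gene whose state differed was LAD in siRif1. These were 8 of 49 (16.3%; all genes 7.37%), namely Cntn5, Cntnap5a, Nlgn1, Dlg2, Tenm2, Nrg3, Rbfox1 and Fstl5. None was LAD in siControl alone (0 of 49; all genes 8.08%). Another 13 were LAD in both and 28 in neither. Among genes outside LADs in siControl, 22.2% of the listed, 44.8% of the other long and 9.79% of all genes were LAD in siRif1. The siRif1 list covered 1038 Mb and the siControl list 786 Mb, and the counts were not corrected for this. The body share was higher in siRif1 for 25 genes, lower for 1 and equal for 23, with a mean difference of 22.2 points. That 1 gene was Cdh13, at 81 and 64.1%. Over all genes the body share was higher in siRif1 for 1720 and lower for 1779, with a mean difference of -0.654 points. Over the other long genes it was higher for 71 and lower for 19. When any base of the body in a LAD was counted, 15 genes were in siRif1 domains alone, and when midpoints under 200 kb from a border were left out, 5 of 35 were. Neither count was made for all genes or the other long genes. A long body touches a domain more readily, so the count by any base is not to be set against the shares by midpoint. The other long genes also leaned to siRif1, with 39 of 172 (22.7%) LAD in siRif1 alone, 5 (2.91%) in siControl alone and a mean difference of 17 points.

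At the 8-cell stage listed genes were found on both sides. LAD in siRif1 alone were 10 of 49 (20.4%; all genes 7.33%), which were Cntn5, Cntnap2, Cntnap5b, Lrp1b, Ctnna2, Csmd1, Cdh8, Gpc6, Erbb4 and Fstl5. LAD in siControl alone were 6 (12.2%; all genes 9.37%), which were Cntn4, Csmd3, Ptprd, Tenm3, Cdh9 and Rbfox1. The body share was higher in siRif1 for 24 genes and lower for 11, with a mean difference of 3 points. Over all genes it was higher for 1684 and lower for 2110, with a mean difference of -2.05 points. Over the other long genes it was higher for 38 and lower for 62. With any base of the body counted, 6 genes were in siRif1 and 3 in siControl domains alone, and no such count was made for other genes. The other long genes leaned to siControl, with 15 of 172 (8.72%) LAD in siRif1 alone, 34 (19.8%) in siControl alone and a mean difference of -9.56 points. Whether the listed and the other long genes differ in this was not tested.

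**Figure D4:**
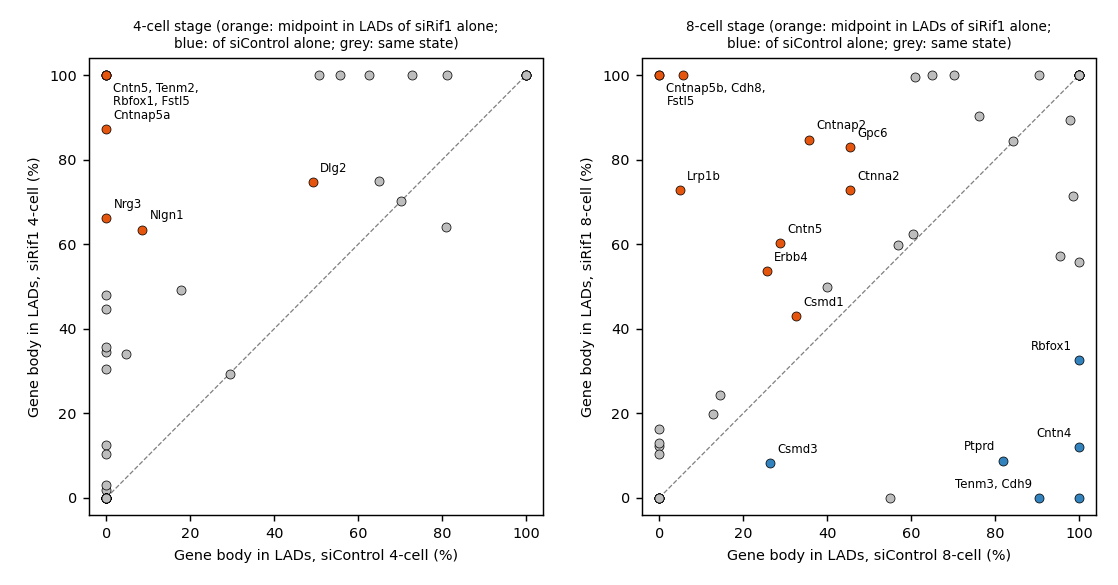
Percent of the gene body in LADs in siControl (x axis) and siRif1 (y axis) lists at the 4-cell (left) and 8-cell stage (right), 1 point per listed gene, with the line of equality dashed and genes of differing midpoint state named. At the 4-cell stage all points but 1 lie on or above the line, and at the 8-cell stage 24 lie above and 11 below it.

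From the 4-cell to the 8-cell stage in siControl embryos, 13 of 49 genes (26.5%; all genes 11.2%) were LAD at the later stage alone. They were Cntn4, Cntn6, Cntnap5a, Dlg2, Csmd3, Ptprd, Tenm2, Tenm3, Cdh9, Dpp10, Dcc, Nrg3 and Rbfox1. Kcnip4 was the 1 gene (2.04%; all genes 9.59%) with the reverse state. Of the 172 other long genes, 45 (26.2%) were LAD at the later stage alone and 12 (6.98%) at the earlier stage alone. Among genes outside LADs in siControl 4-cell embryos, 36.1% of the listed and 51.7% of the other long genes were LAD in siControl 8-cell embryos. The mean body share was 27.6 points higher at the 8-cell stage, against 15.2 points in the other long genes. In siRif1 embryos 11 genes (22.4%; all genes 8.83%) were LAD at the later stage alone, namely Cntn6, Cntnap2, Cntnap5b, Lrp1b, Ctnna2, Csmd1, Cdh8, Dpp10, Gpc6, Erbb4 and Dcc. The reverse held for Nlgn1, Kcnip4 and Rbfox1 (6.12%; all genes 8.58%). The mean difference was 8.45 points, against -11.4 points in the other long genes. Of these, 20 (11.6%) were LAD at the later stage alone and 40 (23.3%) at the earlier stage alone. Each list enters 2 of these comparisons, so the comparisons are not independent and gene sets from them were not set against each other.

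Among the immunoglobulin-superfamily adhesion proteins, 2, 3, 4 and 4 of 7 genes were LAD. The contactins are GPI-anchored neuronal adhesion proteins, and none of the 3 listed was LAD in siControl 4-cell embryos. Cntn5 (chr9:9634223-10904775) had 0, 100, 28.8 and 60.3% of its body in LADs. In siRif1 4-cell embryos its midpoint lay 3931 kb inside an 11.2-Mb domain, and in siControl it lay 669 kb outside the nearest border. On chromosome 6, Cntn6 (chr6:104492662-104863406) and Cntn4 (chr6:105677632-106700141) lie 814 kb apart. Cntn6 had 0, 1.98, 100 and 100% of its body in LADs and Cntn4 had 29.4, 29.4, 100 and 12%. In siControl 8-cell embryos a 5.5-Mb domain held both of them, and in siRif1 8-cell embryos the domain over Cntn6 was 1.3 Mb long and ended before the midpoint of Cntn4.

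The IgLON proteins are a family of short GPI-anchored adhesion molecules. Opcml (chr9:27790716-28925410) and Ntm, 69 kb apart, shared a domain in each list, of 2.5, 4.6, 3.0 and 3.2 Mb. Opcml had 100, 100, 90.4 and 100% of its body in LADs, with the midpoint at least 458 kb inside the border. The related Lsamp (chr16:39984254-42181679) was LAD by its midpoint in no list, with 0, 35.6, 40.1 and 49.9% of its body in LADs. In siRif1 8-cell embryos its midpoint lay 17 kb from a border, less than the 100-kb grid of the lists. Cadm2, a synaptic adhesion gene (chr16:66655416-67620917), was wholly outside LADs in all 4 lists, with the midpoint at least 862 kb from any.

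Synaptic organisers, which join the faces of a synapse, were LAD in 2, 5, 5 and 6 of 9 cases. Presynaptic Nrxn3 (chr12:88722701-90334935) had its whole body in LADs in every list, with the midpoint at least 1129 kb inside a border. Its postsynaptic partner Nlgn1 (chr3:25421808-26332866) had 8.58, 63.5, 0 and 12.2% and was LAD in siRif1 4-cell embryos alone. There the domain at the gene's flank reached 0.5 Mb further than in siControl, and the midpoint lay 123 kb inside. Lrrtm4, another postsynaptic adhesion gene, had 0, 10.3, 0 and 10.3% and was LAD in no list.

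The contactin-associated proteins, relatives of the neurexins, differed among themselves. Cntnap5b (chr1:99772246-100490599) had 0, 0, 0 and 100% of its body in LADs, where a 1.5-Mb gap between siControl 8-cell domains was closed in siRif1. Cntnap5a, on the same chromosome (chr1:115684737-116587323), had 0, 87.2, 76.2 and 90.3%. In siControl 4-cell embryos its midpoint was 3464 kb from the nearest domain. Cntnap2 (chr6:45060061-47301393), whose protein gathers potassium channels on axons, had 17.9, 49.1, 35.7 and 84.8% and was LAD in siRif1 8-cell embryos alone. In siRif1 4-cell embryos its midpoint was 19 kb short of a domain. The start of Cntnap2 was outside LADs in all 4 lists.

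The scaffold gene Magi2 was LAD in all 4 lists, with 81.1, 100, 60.9 and 99.7% of its body. Dlg2 (chr7:90476188-92449246), which encodes a scaffold of the postsynaptic density, had 49.3, 74.7, 100 and 55.8%. Its midpoint lay 63 kb outside in siControl 4-cell embryos and 1137 kb inside a 10.1-Mb domain in siControl 8-cell embryos. Ptprd (chr4:75941237-78211742), a receptor phosphatase that organises presynaptic sites, had 0, 0, 81.9 and 8.81%. A 2.0-Mb stretch over its midpoint was LAD in siControl 8-cell embryos and a gap between domains in siRif1.

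Large extracellular and matrix-facing proteins were LAD in 2, 4, 5 and 7 of 11 cases. The teneurins are very large transmembrane proteins that bind partners across the synapse. Tenm2 (chr11:36006656-37237053) had 0, 100, 56.9 and 59.9% of its body in LADs, and in siControl 4-cell embryos its midpoint was 3778 kb from the nearest domain. Tenm3 (chr8:48225665-49522824) had 0, 48, 90.5 and 0%. It was LAD by its midpoint in siControl 8-cell embryos alone, in a freestanding 1.4-Mb domain, and was 26 kb short of a domain in siRif1 4-cell embryos. Tenm4 was LAD in all 4 lists, with 55.6, 100, 98.5 and 71.5%.

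The CSMD proteins carry long runs of CUB and sushi repeats. Csmd1 (chr8:15892538-17535385) had 0, 12.6, 32.6 and 43.1% of its body in LADs, and its LAD state in siRif1 8-cell embryos rested on a border 14 kb away. Csmd3 (chr15:47580638-48792558) had 0, 0, 26.4 and 8.25%, and its midpoint in siControl 8-cell embryos lay in a domain of 0.2 Mb. With domains under 300 kb left out, Csmd3 was LAD in no list. Csmd2 (chr4:127986505-128567660) had its midpoint at least 2223 kb from LADs in every list, the greatest such distance among the listed genes. It also had the most neighbours, with 21 genes within 1 Mb.

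Lrp1b (chr2:40595290-42653598), a giant relative of the LDL receptor, had 0, 0, 4.86 and 72.9% and was LAD in siRif1 8-cell embryos alone. The glypicans Gpc5 and Gpc6, which carry heparan sulfate at the cell surface, lie 400 kb apart. Gpc5 had 70.3, 70.3, 70.3 and 100% of its body in LADs and Gpc6 (chr14:116924920-117979529) had 0, 0, 45.5 and 83%. In siRif1 8-cell embryos a 3.4-Mb domain held both midpoints. Fstl5 (chr3:76074275-76710010), a secreted relative of follistatin, had 0, 100, 5.62 and 100% and was LAD in both siRif1 lists and in neither siControl list. Sgcz, which encodes a sarcoglycan, was outside LADs over its whole body in all 4 lists.

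**Figure D5:**
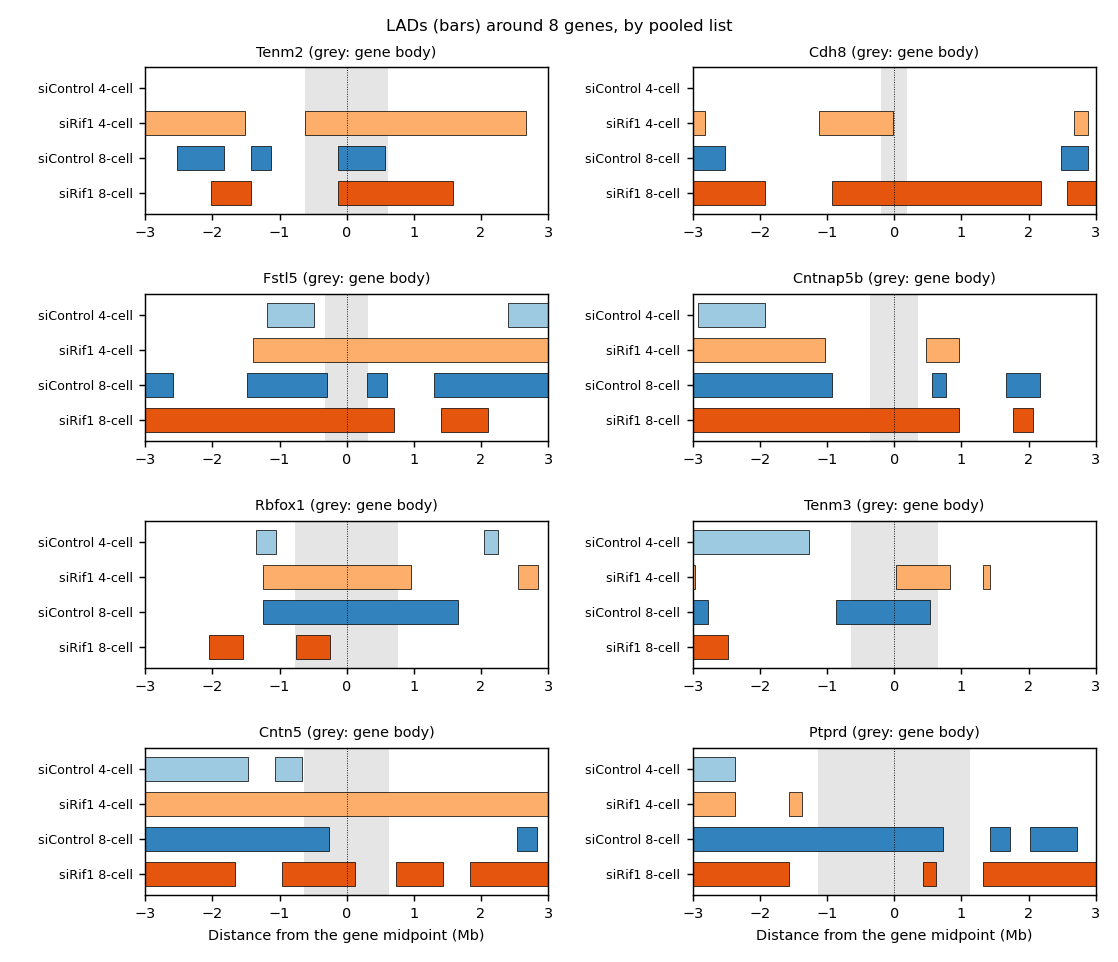
LADs (bars, 1 row per pooled list) within 3 Mb of the midpoints of 8 genes whose state differed, against the distance from the gene midpoint in Mb (x axis), with gene bodies in grey. The siRif1 bars span the whole bodies of Fstl5 at both stages and of Cdh8 and Cntnap5b at the 8-cell stage, while Tenm3 and Ptprd are covered most by the siControl 8-cell bars.

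Cadherins and catenins were LAD in 2, 2, 3 and 4 of 10 cases, and 5 of the 10 were LAD in no list. Cadherins bind each other across cell contacts, and alpha catenins link them to actin. Ctnna3 had 50.8, 100, 95.6 and 57.2% of its body in LADs and was LAD in all 4 lists. Ctnna2 (chr6:76881637-77979815) had 0, 34.6, 45.5 and 72.8% and was LAD in siRif1 8-cell embryos alone, where 0.3 Mb over its midpoint closed a gap. Cdh8 (chr8:99024471-99417666), a type II cadherin of neurons, had 0, 44.6, 0 and 100%, in a 3.1-Mb domain in siRif1 8-cell embryos. In siControl 8-cell embryos its midpoint was 2479 kb from the nearest domain, and in siRif1 4-cell embryos only 21 kb.

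On chromosome 15, the type II cadherin genes Cdh9, Cdh10, Cdh12 and Cdh18 lie in that order with gaps of 1962, 1433 and 950 kb. Cdh9 (chr15:16728550-16857138), the shortest listed gene, had 0, 0, 100 and 0% of its body in LADs, in a domain of 0.2 Mb. It was LAD in no list once domains under 300 kb were left out. Cdh10 (chr15:18818869-19016206) had no base in LADs of any list, with the midpoint at least 818 kb away. Cdh12 had 0, 30.5, 0 and 13.1% and Cdh18 had 0, 0, 0 and 16.3%, each with the midpoint outside throughout. Cdh13, an atypical cadherin held by a GPI anchor, was LAD in all 4 lists, with 81, 64.1, 97.9 and 89.5%. The protocadherin genes Pcdh7 (chr5:57716145-58133236) and Pcdh9 (chr14:93013700-93892834) were wholly outside LADs in every list, with midpoints at least 925 and 1353 kb away.

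Channel partners and nuclear or cytosolic regulators were LAD in 3, 4, 4 and 3 of 5 cases. Kcnip4 (chr5:48389503-49525122), an auxiliary subunit of Kv4 potassium channels, had 62.6, 100, 55 and 0% of its body in LADs. It was LAD in both 4-cell lists and in neither 8-cell list, although 55% of the body was still covered in siControl 8-cell embryos, with the midpoint 157 kb outside. Dpp10 (chr1:123332138-124845815), another Kv4 partner, had 0, 0, 60.4 and 62.5% and was LAD in both 8-cell lists. Rbfox1 (chr16:5884793-7412480), a splicing regulator of neurons, had 0, 100, 100 and 32.7%. Its midpoint lay 951 kb inside in siRif1 4-cell, 1249 kb inside in siControl 8-cell and 249 kb outside in siRif1 8-cell embryos.

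The longest domain over any listed gene held Macrod2, which encodes an ADP-ribosylhydrolase. Macrod2 (chr2:140395303-142392966) had 65, 75, 65 and 100% of its body in LADs, and the domain over its midpoint was 2.3, 3.6, 8.6 and 17.3 Mb long. The midpoint was 6 kb inside a border in siControl 8-cell embryos and 8594 kb inside in siRif1 8-cell embryos. Auts2 (chr5:131437333-132543220), a nuclear protein gene of neural development, was LAD over its whole body in all 4 lists, with the midpoint 1690 kb inside the border in each. Of the listed genes it had the greatest least distance over the 4 lists.

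Guidance and growth factor genes were LAD in 2, 3, 4 and 5 of 7 cases. Neuregulins are ligands of ErbB receptors. The ligand gene Nrg1 (chr8:31807452-32891609) was LAD over its whole body in all 4 lists, with the midpoint at least 950 kb inside. The ligand gene Nrg3 (chr14:38365102-39473235) had 0, 66.3, 84.4 and 84.4%. The start of Nrg3, printed above, was outside LADs in all 4 lists. The receptor gene Erbb4 (chr1:68031884-69108576) had 0, 0, 25.7 and 53.6%, and its LAD state in siRif1 8-cell embryos rested on a border 30 kb away.

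The netrin receptor gene Dcc (chr18:71253613-72351228) had 0, 0, 100 and 100% of its body in LADs, so it was covered at the 8-cell stage alone with either siRNA. Its midpoint lay 1698 and 798 kb inside at that stage. The Slit receptor genes Robo1 and Robo2, which lie 844 kb apart on chromosome 16, were LAD in no list, with body shares of 4.66, 34.1, 14.5 and 24.3% and of 0, 3.05, 12.9 and 19.8%. Dab1 (chr4:103619500-104744844), the adaptor that passes on the reelin signal, was LAD over its whole body in all 4 lists, with the midpoint at least 918 kb inside.

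Relatives of the listed genes, taken from the same families and pathways whatever their length, were LAD about as often as all genes. Of 92 such genes, 89 lay within the span of the lists, with a median length of 75 kb. Of these 21, 27, 23 and 22 (23.6, 30.3, 25.8 and 24.7%) were LAD. At the 4-cell stage 11 (12.4%; all genes 7.37%) were LAD in siRif1 alone and 5 (5.62%; all genes 8.08%) in siControl alone. At the 8-cell stage these were 6 (6.74%; all genes 7.33%) and 7 (7.87%; all genes 9.37%). In all, 10 of the 89 were LAD in every list, beside 9.66% of all genes: Cntn1, Cntn3, Cntnap4, Lrrtm3, Magi1, Cdh2, Cdh26, Negr1, Reln and Vldlr. Of these 10, 7 were at least 200 kb long. Lrrtm3 lies within the body of Ctnna3, so these genes share a position. Reln, the ligand, and Vldlr, a receptor, act upstream of Dab1 in reelin signalling. Among the longest relatives, the protocadherin gene Pcdh15 (1554 kb) had 54.9, 100, 100 and 48.5% of its body in LADs. The sarcoglycan gene Sgcd (1018 kb) had 12.7, 100, 100 and 97.2%, unlike Sgcz.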

How the data were processed

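LaminB1 DamID was mapped in 12 samples, 3 in each of 4 groups. The submitters' processing notes name Trimmomatic, Bowtie2, SAMtools and Picard, and the builds mm10 and GRCm38, without versions or settings. The deposited lists give domains on a 100-kb grid, made from all 3 replicates of a group, and their score field, as deposited by the authors, is 0 in every line and was not used. How domains were called, and whether unfused Dam was subtracted, is not given in the sources used here. A caller's threshold can move borders and the number of genes called.

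Gene positions (1-based) came from RefSeq on GRCm38.p6, leaving out 333 scaffold entries, and strands from RefSeq promoter entries. Midpoint state, percent of body in LADs and distance to the nearest border were computed in Python 3.11.15 and drawn with matplotlib 3.10.9, and the scripts were tested on simulated data. A stretch is called an extension, a gap or freestanding by the domains of the other list that it touches.

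The members, gene families and alternatives were chosen with earlier results of these data known. Any listed gene could be named. Full values went to genes whose state differed in a comparison, to the 5 with the largest range of body share (10 tie), the 5 deepest inside and 5 farthest outside LADs in all lists, and the 3 nearest to a border on either side. Among relatives, the rule names those LAD in all lists and the 3 longest, of which 1 is not reported here. The planned base composition of gene bodies was not computed. With 1 list per group no test was run.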

Additional observations from a re-analysis of the deposited data

Results flagged for a closer look

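In 6 of the listed genes the body share in LADs was at least 25 points higher in siRif1 than in siControl embryos at the 4-cell stage and at least 25 points lower at the 8-cell stage, so the difference turned its direction between stages. With 1 pooled list per group, this difference between stages was not tested. The mean difference over the 172 other long genes also turned, from 17 points at the 4-cell to -9.56 points at the 8-cell stage. How many of those genes, or of all genes, met the same rule was not counted, so the turn is not shown to be particular to the listed genes. The difference (siRif1 minus siControl, 4-cell and then 8-cell stage) was 100 and -67.3 points in Rbfox1, 48 and -90.5 points in Tenm3, and 49.2 and -38.4 points in Ctnna3. It was 44.4 and -27 points in Tenm4, 37.4 and -55 points in Kcnip4, and 25.3 and -44.2 points in Dlg2. Of the 6, the midpoint state differed at both stages in Rbfox1 alone. In Ctnna3 and Tenm4 the midpoint was LAD in all 4 lists, so the difference lay away from the midpoint.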

How the results depend on the processing

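No paired analysis was possible because each list pools 3 replicates and carries no replicate numbers, and for the same reason no replicate was left out. Bridging gaps of up to 200 kb moved no listed gene, leaving out domains under 300 kb moved Csmd3 and Cdh9, and asking for 50% of the body moved Csmd1, Csmd3 and Kcnip4, so that 0 genes were LAD in siControl 4-cell alone between control stages.

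Counting any base of the body changed the states of 24 genes. It gave 33 LAD genes in siRif1 4-cell, 15 in siRif1 alone at the 4-cell stage, 6 in siRif1 and 3 in siControl alone at the 8-cell stage, 20 in 8-cell siControl alone between stages, and 6 in no list. Counts between lists were not made for other genes under this rule. Placing the 37 genes with a strand by their start gave 6 LAD genes in siControl 4-cell and 18 in siRif1 8-cell, 5 in all 4 lists, and 6 at either siRif1 stage alone. By the midpoint, 7 of the same 37 were LAD at the siRif1 8-cell stage alone, an alternative chosen after seeing the data.

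Leaving out midpoints under 200 kb from a border kept 25 genes over all lists, of which 7, 10, 12 and 12 were LAD and 7 LAD in all 4. It left 5 of 35 genes LAD in siRif1 alone at the 4-cell and 5 of 34 at the 8-cell stage, with 4 of 34 in siControl alone there, 8 of 37 in siControl 8-cell alone and 0 in siControl 4-cell alone, and 4 of 31 in siRif1 8-cell alone between stages. These lower counts come with fewer genes. Depth is unknown.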
